A study of Mus musculus with 3 samples.

Results

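Natural killer cells of the mouse held 2634 accessible regions that lay in gene-poor DNA, out of 65804 accessible regions found in at least 2 of 3 DNase-seq libraries (4.003%). A region is a merged group of peaks that overlapped by at least 1 bp between libraries, and it counted as remote where its middle lay outside every annotated gene and more than 100 kb from every protein-coding start site of mm10. No measured value other than the presence of a peak entered this choice. The libraries are 3 biological replicates of 1 group: natural killer primary cells of adult male B6CASTF1/J mice aged 2 months, first-generation offspring of C57BL/6 and CAST parents. All 3 carry 1 donor label and differ in their biosample label, and nothing states that the cells came from separate animals, so the spread between replicates may be technical. There is no other genotype, treatment or time, and the comparison made throughout is between remote regions and the 16528 near intergenic regions, which also lie outside genes and promoters but within 100 kb of a protein-coding start.

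DNase I cuts DNA that nucleosomes leave free, so a peak of cuts marks an accessible site and a short uncut stretch inside it, a footprint, marks bases shielded by protein. Accessible DNA far from genes is a usual place for enhancers, which can act on a promoter across long stretches of DNA, and for sites of CTCF, the factor that anchors chromatin loops. In lymphocytes, enhancers are often bound by RUNX, ETS and AP-1 factors, and those of natural killer cells by the T-box factors T-bet and Eomes.

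The libraries differed in size before any comparison. Replicate 1 held 40484 peaks, against 84564 in replicate 2 and 81854 in replicate 3, and read depth is unknown from these files. Of 9 natural killer marker genes, 6, 9 and 9 had a peak within 500 bp of a start site in replicates 1, 2 and 3. Of 6 B cell markers, 5, 6 and 5 did, so the labelled cell type had its markers open and B cell markers were open beside them. Klrb1c, Klrd1 and Tbx21 had no such peak in replicate 1. Of 5 T cell markers 1, 3 and 2 were open, with Cd4 and Cd8a at 0 in every library. All 5 neutrophil markers were at 0. Of 5 macrophage markers 0, 2 and 1 were open, and of 5 erythroid markers 0, 1 and 1.

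The sequences of the strongest remote regions are shown first, because they set the top of the range. The 8 regions with the highest mean signal percentile among those found in all 3 replicates were ranked by the deposited signal of their strongest peak, expressed as its percentile among all peaks of its library, where 100 is the strongest. The first lay between Gm8797 and 1700008P02Rik on chromosome 3 at percentiles of 100, 99.99 and 99.99, but none of its 31-base words was unique in the reference, and its sequence occurred in 7 copies. A region between Gm31371 and Gm15319 on chromosome 8 was 19.1% unique. Neither is printed among the windows, nor is that between Zeb1 and Arhgap12 or the 67.9% unique one between Cntnap5b and Cdh20. The 4 others are given below as the 150 bases around the region's middle on the + strand of mm10, read from the RefSeq copy of GRCm38.p6, with capitals for bases inside footprints of at least 2 libraries. They are, in order, chr15:68363326-68363475, chr13:107890176-107890325, chr10:96371036-96371185 and chr1:7398126-7398275, and each is named by the protein-coding genes whose starts flank it.
Zfat-Khdrbs3: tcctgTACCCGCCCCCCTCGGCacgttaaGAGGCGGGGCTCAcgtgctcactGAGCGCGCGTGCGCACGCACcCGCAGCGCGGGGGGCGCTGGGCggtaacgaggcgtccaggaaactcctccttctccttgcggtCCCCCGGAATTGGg
Kif2a-Smim15: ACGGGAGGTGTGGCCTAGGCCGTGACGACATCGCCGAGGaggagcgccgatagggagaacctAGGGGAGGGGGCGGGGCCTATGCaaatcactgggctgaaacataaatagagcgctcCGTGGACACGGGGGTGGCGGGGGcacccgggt
Gm5426-Btg1: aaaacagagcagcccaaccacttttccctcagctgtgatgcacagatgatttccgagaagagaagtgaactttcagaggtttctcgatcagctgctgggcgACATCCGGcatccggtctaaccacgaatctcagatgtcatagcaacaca
Pcmtd1-Sntg1: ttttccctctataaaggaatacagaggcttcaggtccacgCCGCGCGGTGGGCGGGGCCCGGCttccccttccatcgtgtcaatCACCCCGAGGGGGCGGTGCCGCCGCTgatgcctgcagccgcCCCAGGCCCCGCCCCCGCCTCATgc

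Of these 4 windows, 3 are rich in G and C and hold a GC box (GGGGCGGG on either strand), the kind of site bound by Sp1-like factors, and all 8 bases of the boxes at bases 8 to 15 (Zfat), 70 to 77 (Kif2a) and 133 to 140 (Pcmtd1) lie in capitals. The region beside Zfat had signals of 9.89, 22.4 and 24.9 in replicates 1, 2 and 3, at percentiles of 98.8, 99.3 and 99.5, and lay 104.5 kb from the Zfat start. The region between Kif2a and Smim15 had signals of 8.03, 25.5 and 26.3. The scale of the deposited signal is not stated, so these signals are read against other peaks of the same library. Replicates 2 and 3 are compared further below as a ratio of signals centred on promoter regions. The observed over expected CpG ratio was 0.879 beside Zfat, 0.895 beside Kif2a and 0.645 beside Pcmtd1, against a median of 0.236 over all remote regions and 0.794 over promoter regions. The fourth window, 245.9 kb from the start of Btg1, an antiproliferative gene of resting lymphocytes, was 50.8% GC, had a CpG ratio of 0.328 and stood at percentiles of 93.1, 98.1 and 98.0. None of the 8 strongest regions had its middle in a RefSeq gene (0 of 8).

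Further windows of the same kind are shown for regions beside genes of natural killer cells. They are the regions with the highest mean percentile among the remote regions that flank Ifng, Eomes and Id2 and were found in all 3 replicates; these genes were chosen after their values were seen. Ifng encodes the main cytokine of natural killer cells, Eomes a T-box factor of their maturation and Id2 an inhibitor of E proteins that their development needs. The windows are chr10:118592746-118592895, chr9:118357536-118357685 and chr12:25240236-25240385.
Ifng-Dyrk2: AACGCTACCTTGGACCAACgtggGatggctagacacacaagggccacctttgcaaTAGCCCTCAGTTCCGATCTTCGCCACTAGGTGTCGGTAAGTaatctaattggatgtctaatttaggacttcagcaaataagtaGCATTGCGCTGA
Cmc1-Eomes: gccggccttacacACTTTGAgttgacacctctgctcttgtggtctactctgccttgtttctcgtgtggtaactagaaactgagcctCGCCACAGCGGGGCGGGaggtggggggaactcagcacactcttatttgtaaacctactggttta
Id2-Rnf144a: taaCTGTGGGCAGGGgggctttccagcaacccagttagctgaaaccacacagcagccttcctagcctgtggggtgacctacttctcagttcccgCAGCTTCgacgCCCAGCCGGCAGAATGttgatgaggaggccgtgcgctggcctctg

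The Ifng region lay 151.8 kb from the Ifng start, at percentiles of 70.1, 86.5 and 86.6, and 73 of its 150 bases were in footprints of at least 2 libraries. The Eomes region lay 120.6 kb from the Eomes start, at percentiles of 72.8, 78.9 and 87.7, with 24 such bases and a GC box at bases 96 to 103 that lay wholly within them. The Id2 region lay 143.2 kb from the Id2 start, at percentiles of 75.2, 86.9 and 93.0. Its match to the RUNX motif (TGTGGTT, bases 43 to 49 on the - strand) had 0 of 7 bases in footprints. The window of the strongest Cxcr4 region is not printed. It had 0 of 150 bases in footprints of at least 2 libraries, although that region stood at percentiles of 86.0, 90.9 and 95.5.

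Remote regions were weak among accessible regions. Their median percentile was 27.2, 41.9 and 39.9 in replicates 1, 2 and 3, against 46.7, 58.2 and 55.9 for near intergenic regions. The remote median was the lower one in each of the 3 libraries, by 17.2 ± 1.90 percentile points (SD, n = 3; exact two-sided sign-flip test, p = 0.25, the smallest that 3 replicates can give). Means over the replicates were 36.3 ± 7.96 for remote and 53.6 ± 6.10 for near intergenic regions (SD, n = 3), with 49.2 ± 5.93 for regions inside genes and 83.6 ± 3.72 for promoter regions. Among the strongest 10% of all peaks of a library stood 13, 40 and 48 remote regions, or 1.32%, 1.53% and 1.84% of those with a peak there. The near intergenic shares were 2.88%, 5.21% and 5.24%.

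**Figure D1:**
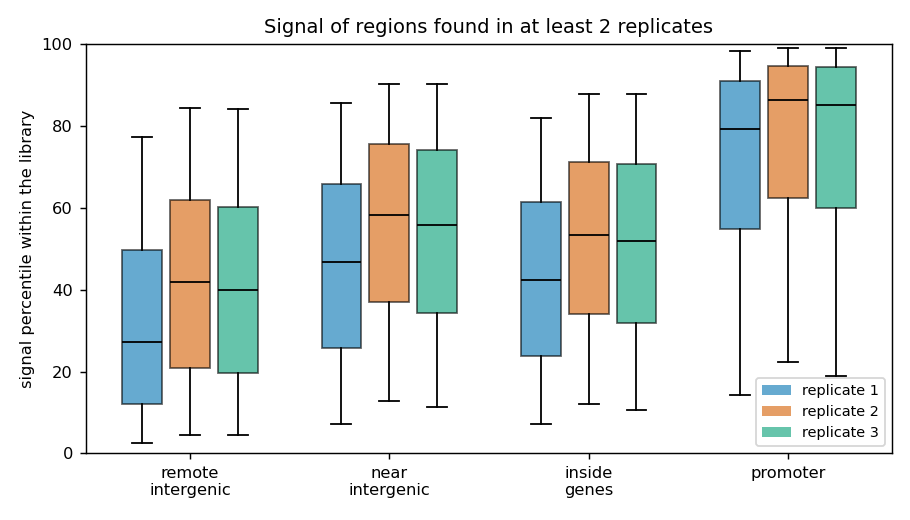
Signal percentile within each library (vertical axis) of remote intergenic, near intergenic, genic and promoter regions, with 1 box per replicate (line, median; box, quartiles; whiskers, the 5th and 95th percentile of regions). The remote medians, 27.2, 41.9 and 39.9, lie below those of every other class in the same replicate.

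Most remote regions rested on replicates 2 and 3. A peak was present at 982 of them in replicate 1, at 2615 in replicate 2 and at 2610 in replicate 3. All 3 libraries had a peak at 939 (35.7%), against 48.2% of near intergenic and 53.4% of all 65804 regions. Of the 1695 found in 2 libraries, 1652 lacked a peak in replicate 1, 19 in replicate 2 and 24 in replicate 3. A further 3106 remote regions had a peak in 1 library and were not kept. Of the 1652 without a peak in replicate 1, 96 (5.81%) overlapped an interval with a listed false discovery rate in that library (median q-value 0.0357), against 563 of 8393 near intergenic regions (6.71%). The number of peaks per library moves with these shares, and its part in them was not tested. The regions found in all 3 libraries were the stronger ones in replicates 2 and 3, among regions with a peak there: their median percentile was 62.9 in replicate 2 and 65.5 in replicate 3, against 30.4 and 27.6 for those found in 2 libraries.

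Accessibility thinned out with distance from genes. Just past 100 kb the median percentile was not lower than just short of it in replicates 2 and 3, but it was in replicate 1. Density so close to the limit was not computed. Intergenic DNA held 39.1 regions per Mb at 0.5 to 10 kb from a protein-coding start, 25.4 at 10 to 50 kb and 14.5 at 50 to 100 kb. Beyond the limit of the rule it held 7.07 per Mb at 100 to 200 kb (1546 regions), 3.00 at 200 to 500 kb (915 regions) and 0.717 beyond 500 kb (173 regions). The mean over replicates of the median percentile was 57.7 ± 5.90, 53.0 ± 6.61, 45.0 ± 5.28, 39.8 ± 8.35, 32.3 ± 10.1 and 23.2 ± 5.75 in these 6 classes, from the nearest to the farthest (SD, n = 3). The 264 regions just past the limit, at 100 to 110 kb, had medians of 24.8, 44.8 and 43.2 in replicates 1, 2 and 3, and the 337 just short of it, at 90 to 100 kb, had 30.3, 43.8 and 41.6. The farthest remote region lay 2140 kb from a protein-coding start, and the median distance was 174.9 kb.

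**Figure D2:**
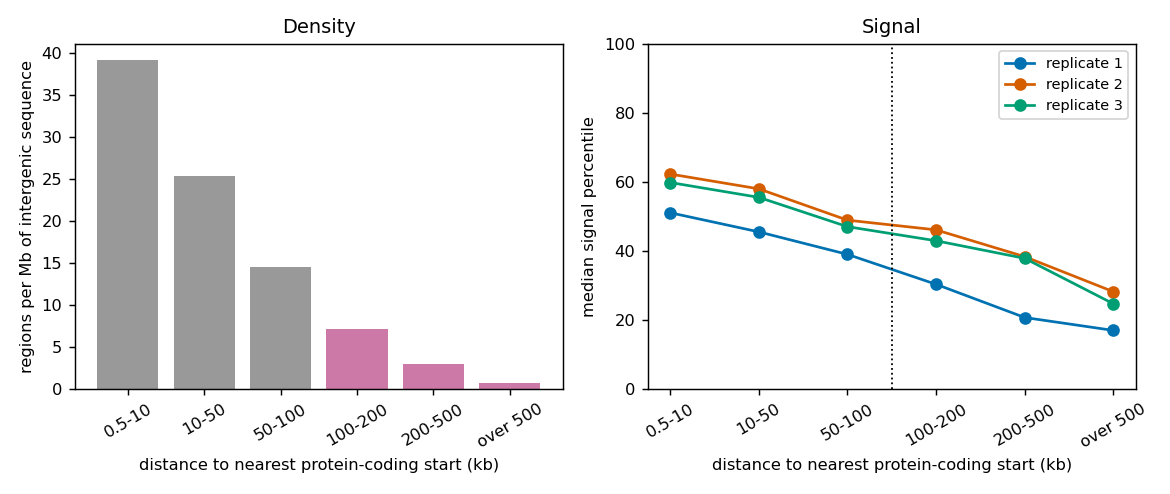
Number of regions per Mb of intergenic sequence (left, bars from 0) and median signal percentile in each replicate (right) by distance to the nearest protein-coding start in kb. Pink bars and the points right of the dotted line are the remote regions, whose density is 7.07, 3.00 and 0.717 per Mb in the 3 farthest classes.

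Footprints were fewer in remote regions. At least 1 whole footprint lay in 62.6%, 85.6% and 83.3% of remote regions with a peak in replicates 1, 2 and 3, and in 77.7%, 90.5% and 89.0% of near intergenic ones. The share was lower by 8.58 ± 5.65 percentage points (SD, lower in 3 of 3 replicates; exact sign-flip test, p = 0.25), and replicate 1 gave the widest gap. Per kb of peak, remote regions held 8.97 ± 1.96 footprints and near intergenic regions 10.6 ± 1.62, a difference of -1.64 ± 0.366 (SD, n = 3; exact test, p = 0.25). Footprints in at least 2 libraries were present in 1971 remote regions (74.8%), against 83.9% of near intergenic and 81.8% of all regions. When regions of like percentile were set side by side, the difference in the share with a footprint was -2.44 ± 2.39 points at percentiles up to 25, 1.99 ± 2.68 at 25 to 50, 0.736 ± 0.678 at 50 to 75 and -0.131 ± 0.364 above 75 (SD, n = 3). Above the percentile of 75, 99.1% of remote and 99.2% of near intergenic regions held a footprint, which leaves little room for a difference in that share. Footprints per kb above 75 were 14.7 ± 1.31 in remote and 15.4 ± 1.44 in near intergenic regions, a difference of -0.70 ± 0.22 (SD, lower in 3 of 3 replicates; exact test, p = 0.25). The differences per kb were -0.27 ± 0.31 up to 25, 0.08 ± 0.56 at 25 to 50 and 0.06 ± 0.52 at 50 to 75. The footprints themselves, 1324, 5711 and 5377 in the remote regions of the 3 replicates, had a median width of 9 bp in each library.

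In base composition, remote regions stood closer to near intergenic regions than to the gene-poor DNA around them. Their median width was 220 bp (52 to 840 bp), the same as that of near intergenic regions. Median GC content was 49.1% in remote regions, against 50.5% in near intergenic and 64.4% in promoter regions. Windows of 150 bp spaced by 3000 bp over the same gene-poor DNA, 254616 in all, had a median of 38.7%. All 31-base words of the region were unique in the reference for 2136 remote regions (81.1%), as for 81.0% of near intergenic ones. Under 50% were unique in 131 remote regions (4.97%), against 2.46% of near intergenic regions.

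CTCF sites were common in remote regions. All motifs were searched on both strands. Counts of regions with a motif, here and below, use the 150 bp around the middle of the merged region. Shares per replicate and their log2 ratios use the 150 bp around the middle of the strongest peak in that replicate. The CTCF motif was found in 334 of 2634 remote regions (12.7%). It was in 14.8% of near intergenic regions, 9.96% of all regions and 0.0628% of the windows of gene-poor DNA. In regions with a peak in replicates 1, 2 and 3 the CTCF motif was in 13.7%, 12.7% and 12.8% of remote ones. It was in 19.0%, 15.2% and 15.3% of near intergenic ones. The log2 ratio of these shares was -0.32 ± 0.12 (SD, lower in 3 of 3 replicates; exact sign-flip test, p = 0.25). The deficit was wider at high than at low percentiles. At percentiles up to 25 the motif was in 12.7% ± 2.14 of remote and 10.9% ± 3.91 of near intergenic regions, lower in remote regions in 1 of 3 replicates. Above the percentile of 75 it was in 12.3% ± 2.59 of remote and 20.8% ± 1.96 of near intergenic regions, a difference of -8.48 ± 1.22 points (SD, n = 3; lower in 3 of 3, exact test, p = 0.25), with 61, 310 and 295 remote regions behind the shares. The near intergenic share was higher above 75 than up to 25 in each replicate. Of the remote shares this held in replicate 2, at 15.2% above 75 and 10.2% up to 25, but not in replicates 1 and 3.

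A CTCF motif lay at least 50% inside a footprint in 57, 277 and 246 remote regions in replicates 1, 2 and 3, and in 57 regions in all 3 libraries. The 6 strongest of those are shown as 40 bases in the orientation of the motif, with the 12 motif bases in capitals. They are chr8:20122185-20122224 (+ strand), chr16:50736948-50736987 (- strand), chr3:52844212-52844251 (+ strand), chrX:94865719-94865758 (+ strand), chr14:54059950-54059989 (+ strand) and chr12:77781559-77781598 (- strand).
Gm31371-Gm15319: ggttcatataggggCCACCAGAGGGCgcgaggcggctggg
Ccdc54-Cblb: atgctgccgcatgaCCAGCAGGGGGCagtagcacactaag
Foxo1-Cog6: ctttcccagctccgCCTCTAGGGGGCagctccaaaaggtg
Zxdb-Spin4: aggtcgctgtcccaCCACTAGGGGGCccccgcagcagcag
Olfr1507-Dad1: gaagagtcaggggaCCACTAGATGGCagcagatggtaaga
Fut8-Gm6657: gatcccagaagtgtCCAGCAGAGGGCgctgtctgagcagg

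All 12 motif bases lay in footprints of each library at 5 of these sites, and at the Foxo1 site 11 did in replicate 1 and 12 in the others. The site 145.8 kb from Ccdc54, in the gap towards Cblb, a ubiquitin ligase that restrains lymphocyte activation, had signals of 3.43, 7.43 and 7.80 at percentiles of 83.9, 92.3 and 92.1. The Foxo1 site had signals of 2.78, 8.76 and 8.82 at percentiles of 79.8, 93.7 and 93.2. The site between Olfr1507 and Dad1 lies in the T cell receptor alpha and delta locus, at percentiles of 77.2, 88.5 and 89.3. The first of the 6 is the region of 19.1% unique sequence described above. Remote regions with the motif were found in all 3 libraries in 40.4% of cases, against 35.0% of those without it.

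Motifs other than CTCF differed in both directions between remote and near intergenic regions. Of 29 motifs, 26 were present in both classes in every replicate; 13 had a higher share in remote regions in all 3 replicates and 6 a lower one, each with p = 0.25 by the exact sign-flip test and 0.342 after Benjamini-Hochberg adjustment, so that none could pass 0.05. In 2 of the 13, TEAD and the GABP-type ETS motif, the log2 ratio was 0.01 and 0.05. The examples that follow were chosen after their values were seen, and none of their strings contains another. The RUNX motif was in 302 remote regions (11.5%; 7.46% of all regions), and in 10.2%, 11.4% and 11.8% of remote against 7.51%, 8.63% and 8.94% of near intergenic regions in replicates 1, 2 and 3, a log2 ratio of 0.41 ± 0.02 (SD, n = 3). The lymphoid ETS motif (CAGGAAG) was in 406 (15.4%; 12.2% of all regions), with a ratio of 0.32 ± 0.08. The motif of PU.1 (GAGGAAGT), an ETS factor of myeloid and B cells, was in 148 (5.62%; 3.85% of all), with a ratio of 0.26 ± 0.02.

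The AP-1 motif (TGANTCA) was in 242 remote regions (9.19%; 6.78% of all), with a log2 ratio over near intergenic regions of 0.35 ± 0.26, and 0.65 in replicate 1 was the highest of the 3. The IRF motif was in 77 (2.92%; 2.04% of all) and the TCF and LEF motif (CTTTGAT) also in 77 (2.92%; 1.81% of all), with ratios of 0.33 ± 0.12 and 0.39 ± 0.09. The octamer ATGCAAAT, bound by the POU factors Oct-1 and Oct-2, was in 46 (1.75%; 1.04% of all), with a ratio of 0.68 ± 0.18 (SD, n = 3). On the other side stood the GC box, in 38 remote regions (1.44%; 6.37% of all), with a ratio of -0.88 ± 0.07, and the NF-kB motif, with a ratio of -0.29 ± 0.11. The T-box motif (AGGTGTGA) was in 39 (1.48%; 1.28% of all) and did not keep to 1 side, with ratios of -0.39, -0.13 and 0.05 in replicates 1, 2 and 3. Windows of the same length in gene-poor DNA held the RUNX motif in 3.18%, the lymphoid ETS motif in 3.90%, the PU.1 motif in 0.875%, the AP-1 motif in 4.51%, the IRF motif in 2.79%, the TCF and LEF motif in 3.51%, the octamer in 1.64%, the GC box in 0.144% and the T-box motif in 0.462%. The remote share of the TCF and LEF motif thus stood below that of the windows, which are lower in GC.

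Motifs inside footprints were compared in the same way. Of 24 motifs seen in both classes in every replicate, 8 took a higher share of remote than of near intergenic footprints in all 3 replicates and 6 a lower one (exact sign-flip test, p = 0.25 each, adjusted 0.429). The RUNX motif lay at least 50% inside 1.40% ± 0.390 of remote and 0.926% ± 0.334 of near intergenic footprints, a log2 ratio of 0.63 ± 0.23 (SD, n = 3). For the AP-1 motif the shares were 0.823% ± 0.210 and 0.4997% ± 0.203, a ratio of 0.78 ± 0.32. For the lymphoid ETS motif the ratio was 0.65 ± 0.21. The CTCF motif took 4.60% ± 0.282 of remote and 6.19% ± 0.846 of near intergenic footprints, a ratio of -0.42 ± 0.27, and was still the most frequent of the 29 in both classes.

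**Figure D3:**
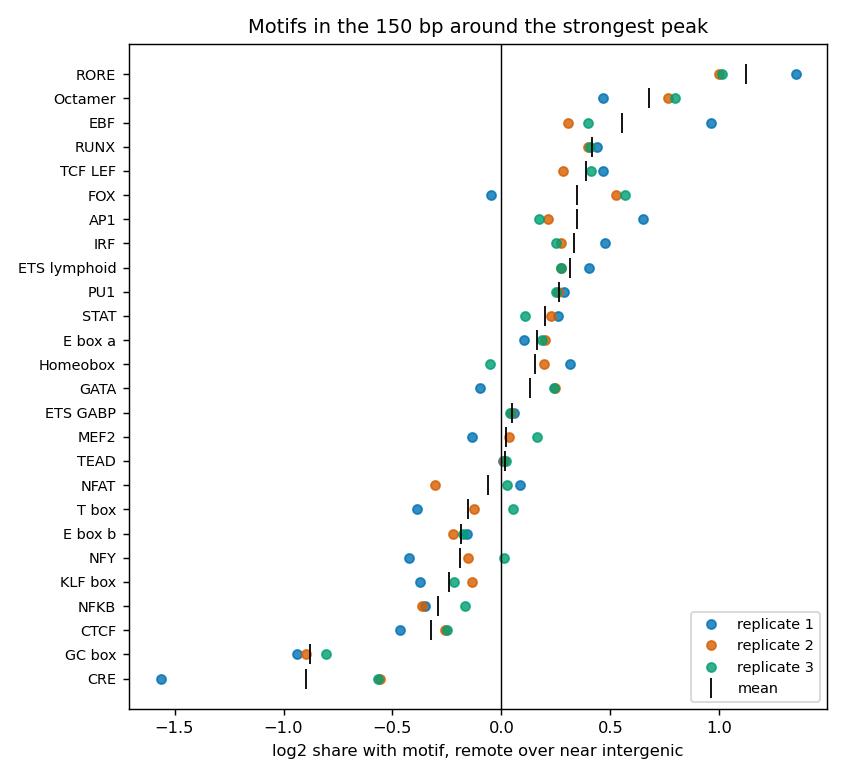
Log2 ratio of the share of remote over near intergenic regions that hold a motif (horizontal axis), 1 point per replicate and a bar at the mean, for the 26 motifs present in both classes in every replicate; E box a is the E box with a central GC and E box b that with a central CC. RUNX (0.41) and lymphoid ETS (0.32) lie right of 0 and CTCF (-0.32) and the GC box (-0.88) left of it in all 3 replicates.

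Remote regions were unevenly spread. The gene-poor DNA open to the rule comprised 765 Mb (28.9% of the genome) in 1984 intervals between neighbouring protein-coding starts, at 3.44 remote regions per Mb. No remote region lay in 1260 of these intervals, which hold 56.3% of that DNA. By contrast, 57 intervals with at least 10 each held 928 remote regions (35.2%) on 4.59% of it. The median distance to the next remote region was 10.5 kb, and 1299 (49.3%) had another within 10 kb. In all, 74 groups of at least 4 joined by such gaps held 383 regions. The largest had 10 regions each, over 30.2 kb between Agtr1b and Tbl1xr1 on chromosome 3 and over 19.1 kb between Tle3 and Rplp1 on chromosome 9.

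The fullest intervals included antigen receptor loci and the DNA beside Foxo1. The 57 regions between Adam6a and Zfp386 on chromosome 12 were the most in 1 interval. This is the immunoglobulin heavy chain locus, whose gene segments the annotation does not class as protein-coding. They were weak, with medians of 12.2, 23.7 and 24.7 in replicates 1, 2 and 3, and 24 of the 57 held a CTCF motif. The 46 regions between Foxo1, a forkhead factor of lymphocyte homing and survival, and Cog6 had medians of 46.6, 55.5 and 55.1, lay 122.2 to 613.9 kb from the Foxo1 start and held 1 CTCF motif. At 100.4 regions per Mb this was the densest interval among those with at least 300 kb of eligible DNA. Next came 34 regions in the T cell receptor alpha and delta locus between Olfr1507 and Dad1, 29 between Tbc1d1 and Klf3, and 27 between Gadd45g and Diras2. The T cell receptor regions had medians of 34.5, 30.98 and 42.4 in replicates 1, 2 and 3, the Klf3 regions 47.2, 52.2 and 54.7, and the Gadd45g regions 42.9, 48.0 and 39.1. Gene segments of the immunoglobulin kappa locus spanned 27 remote regions, which had a peak in replicate 1 in 1 case and medians of 28.1 and 10.7 in replicates 2 and 3.

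Between Tle3, a corepressor of the Groucho family, and Rplp1 lay 25 regions with medians of 67.0, 55.6 and 65.9. A further 25 lay between Cd83 and Jarid2, and 22 each between Fut8 and Gm6657 and between Id2 and Rnf144a. By density, the intervals after Foxo1 were Tle3 to Rplp1 at 79.6 per Mb, Gadd45g to Diras2 at 61.2, Cd83 to Jarid2 at 51.3 and Stt3b to Gadl1 at 46.4. In all, 134 remote regions (5.09%) lay within the span of antigen receptor gene segments.

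**Figure D4:**
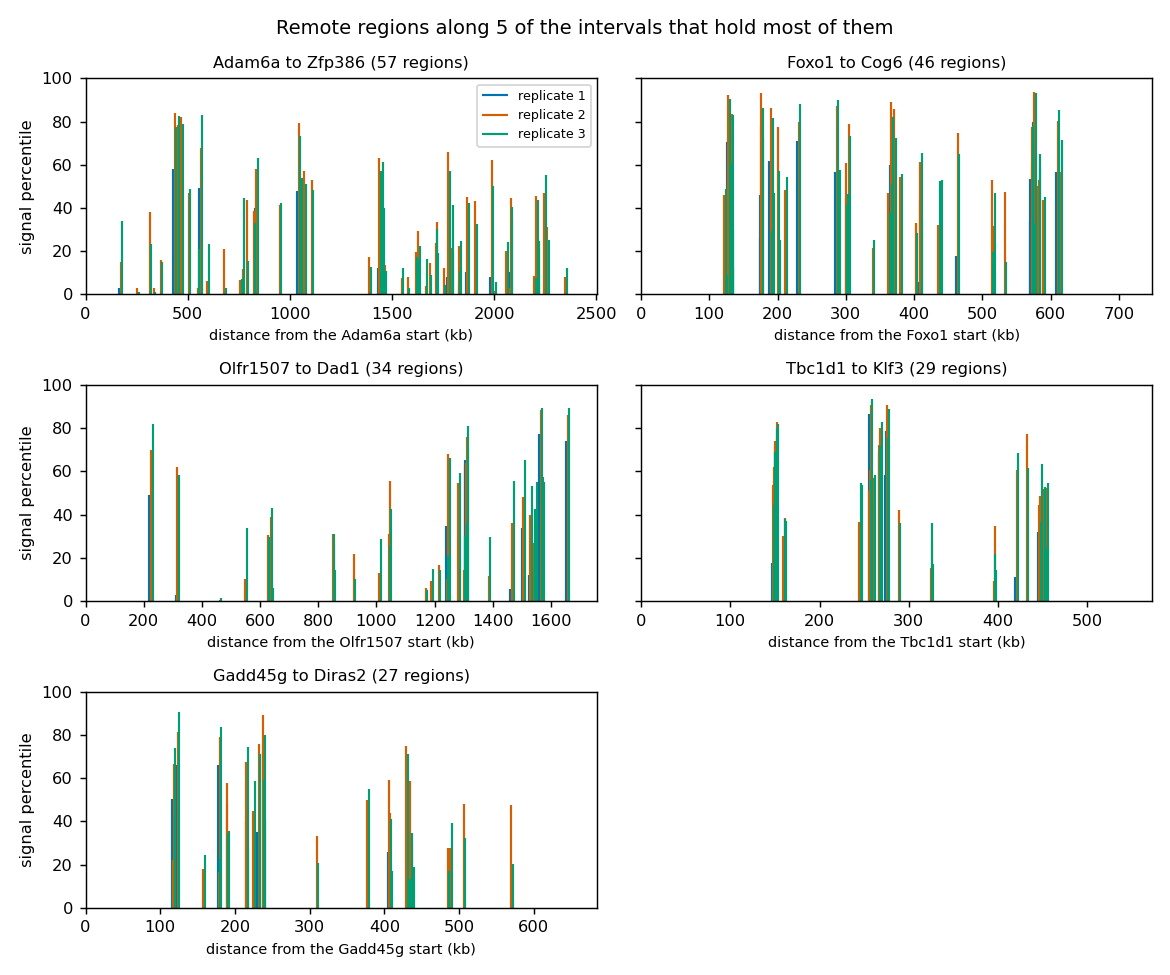
Remote regions along 5 of the intervals that hold most of them, by distance from the start of the left-hand gene in kb (horizontal axis) and signal percentile (vertical axis), 1 line per region and replicate, with the lines of the 3 replicates set slightly apart. The Foxo1 interval has lines up to 79.8, 93.7 and 93.2 in replicates 1, 2 and 3, and the heavy chain locus (Adam6a to Zfp386) up to 57.9, 83.9 and 83.2.

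The gene lists differed in how many remote regions their genes flanked. In 10 gene lists of 241 entries, 35 genes flanked at least 3 each. The 40 natural killer and shared lymphoid transcription factors flanked 208 remote regions (7.90%) on 15.1 Mb of eligible DNA (1.97%), or 13.8 per Mb, against 3.44 per Mb over all eligible DNA and 3.33 beside genes of no list. This density was not particular to that list. It was 13.7 beside genes of the list named immediate early, of whose 51 regions 27 flank Btg1. It was 13.7 beside T cell genes, 10.2 beside myeloid and 7.33 beside B cell genes. It was 19.4 beside trafficking, 52.8 beside cytotoxic effector and 53.8 beside cytokine receptor and signalling genes, and 1.82 beside receptor and adaptor genes. Several of these rest on little eligible DNA: 0.322 Mb for effector, 0.465 Mb for cytokine, 0.439 Mb for T cell and 0.293 Mb for myeloid genes. Density falls with distance from genes, and the part of distance in the differences between lists was not tested. After Foxo1 came Id2 with 22, Runx1 with 16, Zeb2 with 15, Tox with 14, Myc with 13, Eomes and Satb1 with 11 each, Gata3 with 10, Ets1 with 9, Klf12 with 8, Nr4a3 with 7, Bach2 and Maf with 6 each, and Foxp1 and Ikzf2 with 3 each. The 11 beside Eomes had a peak in replicate 1 in 7 cases and medians of 36.8, 35.1 and 49.7 in replicates 1, 2 and 3. The 22 beside Id2 had medians of 52.5, 45.3 and 49.0. Those beside Zeb2, a repressor that terminal maturation of natural killer cells needs, reached as far as 3502 kb from its start and had medians of 10.1, 16.5 and 38.7.

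Few genes of the effector and receptor lists border gene-poor DNA, and the same held for T cell (2 of 20) and myeloid genes (3 of 20). Of the transcription factors 24 of 40 did. The share over all protein-coding genes was not computed, so a low share is not known to be particular to any list. Of 21 cytotoxic effector genes 3 bordered gene-poor DNA, with 17 remote regions. Of these regions 11 flanked Ifng and 5 Fasl, the gene of the death ligand FasL. The Ifng regions lay 115.6 to 325.2 kb from its start, at medians of 21.1, 48.6 and 46.7. Of 27 receptor and adaptor genes 2 did, with 1 remote region. Cytokine receptor and signalling genes had 25, of which 18 flanked Tgfbr2, the receptor of TGF-beta, and 7 Dusp6, a phosphatase of ERK. The strongest Tgfbr2 region lay 209.1 kb from its start with signals of 3.999, 12.2 and 11.6, at percentiles of 86.7, 96.2 and 95.4. Trafficking genes had 40: 20 beside Cxcr4, the receptor that holds cells in the bone marrow, 10 beside the integrin gene Itgb1 and 4 each beside Itga4 and the egress receptor gene S1pr1. The strongest Cxcr4 region, 600 bp wide and 195 kb from the start, stood at percentiles of 86.0, 90.9 and 95.5, and the strongest Itgb1 region at 86.6, 87.5 and 94.9.

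The list named immediate early had 51 remote regions and is broader than its name. Btg1, described above as a gene of resting lymphocytes, had 27. Zfp36l2, an RNA decay factor, had 12, Zfp36l1 6 and Jun 5. Genes of other lineages had some too. B cell genes had 24, with 10 beside Ebf1 and 6 each beside Bcl11a and Mef2c, T cell genes 6, of which 5 flanked Icos, and myeloid genes 3. Neuronal and adhesion genes, 29 of 30 of which border gene-poor DNA, had 31 on 69.8 Mb, or 0.444 per Mb, with 13 beside Cdh4, 5 beside Cdh18 and 3 beside Epha7. Flanking is a matter of position, and no file used here ties a remote region to a gene.

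Replicates 2 and 3, which were close in size, differed region by region. Signal was centred on 14864 promoter regions with a peak in both, and of 2591 remote regions with a peak in both 1309 (50.5%) were higher in replicate 2, as were 50.7% of all such regions. The log2 ratio of replicate 2 over replicate 3 had its quartiles at -0.46 and 0.41 in remote regions. They were -0.30 and 0.33 in near intergenic and -0.14 and 0.16 in promoter regions. These classes also differ in signal, with median percentiles in replicate 2 of 41.9, 58.2 and 86.3. The spread was not compared at matched percentile. The ratios are of 2 libraries of 1 group, with no test, and the scale of the signal behind them is not stated. Natural killer and B cell markers moved in opposite directions between the 2 libraries. The promoter percentile was higher in replicate 3 for 9 of 9 natural killer markers, and higher in replicate 2 for 6 of 6 B cell markers. Summed over the B cell markers it was 158.7, 509.3 and 386.9 in replicates 1, 2 and 3. Over the natural killer markers it was 478.2, 666.2 and 745.5. Of 5 T cell markers 2 were higher in replicate 2 and 1 in replicate 3, with sums of 30.3, 139.2 and 80.8. The part of other cells in the differences below was not tested.

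Remote regions beside B cell genes and in the immunoglobulin loci differed in this ratio. All 10 beside Ebf1, the B lineage factor, were higher in replicate 2, at a median log2 ratio of 0.95, with median percentiles of 31.1 in replicate 1 (3 regions), 50.2 in replicate 2 and 16.3 in replicate 3. So were 5 of 6 beside Mef2c (0.62), 4 of 6 beside Bcl11a (0.26), 24 of 27 in the kappa locus (0.53) and all 9 between Hira and Olfr164 (1.18), where the immunoglobulin lambda locus lies. That interval had the highest median of 163 with at least 5 regions in both libraries, followed by Xkr9 to Eya1 (1.10, 6 of 6) and Nrip1 to Usp25 (1.04, 4 of 5). The heavy chain locus, which holds the most, did not share this: 33 of its 61 regions were higher in replicate 2, at a median of 0.04. Of regions beside genes outside the B cell list, 5 of 6 beside Zfp36l1 were higher in replicate 2 (1.00), as were 6 of 7 beside Nr4a3 (0.63). The strongest Zfp36l1 region found in all 3 libraries went the other way, at percentiles of 51.4 and 73.9 in replicates 2 and 3. Its middle lay in a protein-coding RefSeq gene.

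Of the 16 transcription factor genes that flank at least 3 remote regions, 10 had a median log2 ratio below 0, that is, higher signal in replicate 3. Among all 163 intervals with at least 5 regions in both libraries, 82 had a median above 0, so medians below 0 were common outside this list too. Factors above 0 included Maf (0.43, 4 of 6 higher in replicate 2) and Satb1 (0.21, 8 of 11). None of 11 beside Eomes was higher in replicate 2 (median log2 ratio -0.68), nor any of 6 beside Bach2 (-0.83) or of 8 beside Klf12 (-0.54). Of 10 beside Gata3, 2 were (-0.66), of 22 beside Id2 6 (-0.44), and of 34 in the T cell receptor alpha and delta locus 9 (-0.39). The lowest intervals were Capza3 to Plekha5 (-0.99, 0 of 5), Klf5 to Klf12 (-0.92, 0 of 6) and Nrp1 to Itgb1 (-0.91, 0 of 9). Beside Foxo1 25 of 46 were higher in replicate 2 (0.13), and beside Ifng 3 of 11 (-0.16).

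The ratio of the 2 libraries also differed by motif. Only part of the motifs are described, with their values known. Among the others, remote regions with the NF-kB motif had a median of -0.19 and those with the TCF and LEF motif -0.18. Those with the GC box had 0.155 and those with the IRF motif 0.04. Of 39 remote regions with the T-box motif 8 were higher in replicate 2, with a median log2 ratio of -0.67, and the 251 near intergenic regions with it, which are other regions, had -0.50. AP-1 regions had -0.35 (remote) and -0.26 (near intergenic), and RUNX regions -0.30 and -0.17. Octamer regions had 0.34 (46 remote regions) and 0.35. Regions with the EBF motif, the site of Ebf1, had 0.33 (22 remote regions, quartiles -0.39 and 1.06) and 0.41. PU.1 regions stood nearer 0, at 0.06 and 0.15, and GATA regions had -0.30 and -0.09. CTCF regions had 0.19 and 0.11. They varied less than regions without the motif: the SD over regions was 0.43 in remote regions with the CTCF motif and 0.65 in those without, against 0.33 and 0.55 in near intergenic regions.

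**Figure D5:**
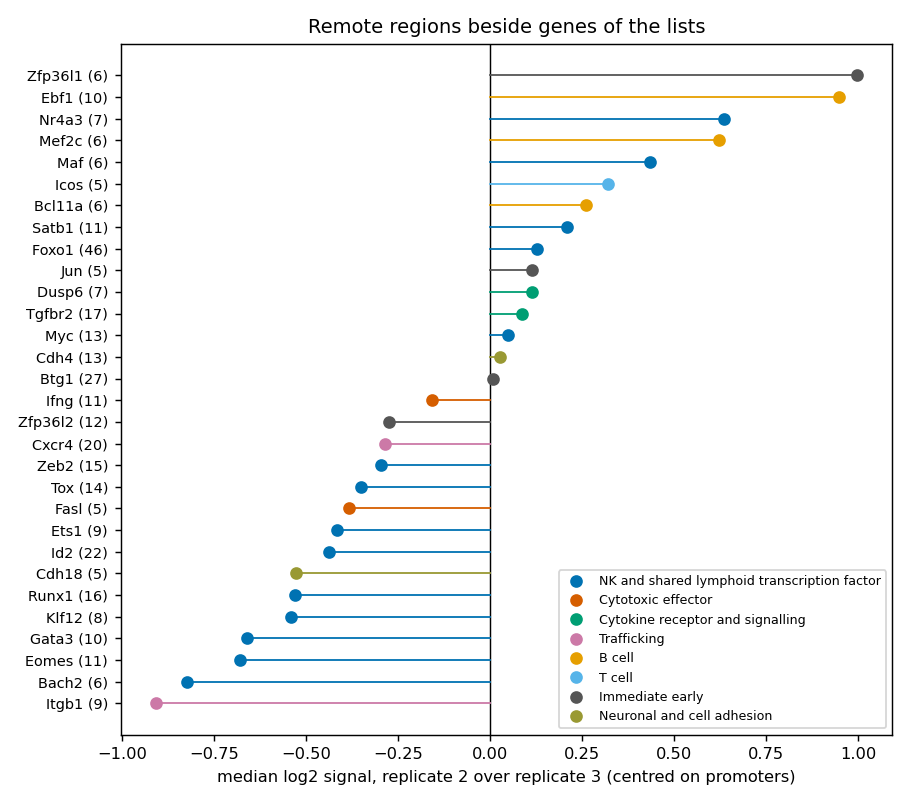
Median log2 signal of replicate 2 over replicate 3, centred on promoter regions (horizontal axis), of the remote regions that flank each listed gene with at least 5 such regions in both libraries; their number is in brackets and the colour gives the gene list. Ebf1 (0.95) and Zfp36l1 (1.00) stand at the top and Bach2 (-0.83) and Itgb1 (-0.91) at the bottom.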

How the data were processed

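DNase-seq peaks, footprints and q-values of cut rates of 3 libraries of mouse natural killer cells were used as deposited by the authors, in mm10. Per the labels and the deposited descriptions, each list was called from the filtered alignments of 1 library. As to aligner, callers and parameters, these were not given in the sources used here. The deposited peak signal has no stated scale, so it was ranked within a library. The deposited footprints carry a score that is constant, and it was not used. The deposited q-values (FDR) reach up to 0.05. Read depth is unknown, so no counting interval is given.

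The larger peak list of each library was merged by 1 bp overlap into 99408 regions (Python 3.11.15, checked with bedtools 2.31.1, 0 differences). Genes were those of GENCODE M21. A promoter region had its middle within 500 bp of a protein-coding start, and the other classes follow by the middle of the region. Per replicate, remote and near intergenic regions were compared by their difference or log2 ratio, with an exact two-sided sign-flip test over 3 replicates (smallest p 0.25) and Benjamini-Hochberg adjustment over motifs. Steps were tested on simulated data. B6CASTF1/J DNA differs from the reference at CAST alleles, and the effect on calls was not tested. Reads of repeated sequence may be placed wrongly, so uniqueness of 31-base words was computed.

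Named are the flanking genes of the 10 intervals with most remote regions and of the 5 densest, the 8 strongest regions, the 6 strongest with a CTCF footprint in all replicates, listed genes that flank at least 3, and the 3 highest and 3 lowest intervals between replicates 2 and 3. The members, gene lists, motifs and this rule were chosen with earlier results of these data known. Alternatives were the stricter peak list, other overlap, distance and gene rules, repeats, other footprint and motif windows and leaving out each replicate. Those without antigen receptor loci, without RefSeq genes and with unique sequence were chosen after seeing the data. An interval and a marker gene that these rules name are not reported here.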

Additional observations from a re-analysis of the deposited data

How the results depend on the processing

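The differences between remote and near intergenic regions in median percentile, share found in all 3 replicates, share with a footprint, footprints per kb and CTCF motif share kept their sign under every alternative run for them. Other motifs, base composition and the comparisons at matched percentile were not recomputed. The number of remote regions was 1754 with the stricter peak lists, 5390 beyond 50 kb and 1088 beyond 200 kb, and 955 to 2605 when 1 replicate was left out, with 955 without replicate 2 and 960 without replicate 3, which leave the small replicate 1 as a required partner. The share found in all 3 replicates differed by -12.55 percentage points, and by -16.53 beyond 200 kb. Leaving out 1 replicate gave differences of -15.96 to -13.79 in median percentile, -8.99 to -5.28 in the share with a footprint, -1.76 to -1.41 in footprints per kb and -0.49 to -0.25 in the log2 ratio of CTCF shares. Over all alternatives these ran from -21.5 to -13.7, from -12.2 to -4.45, from -2.05 to -1.26 and from -0.49 to -0.25. Of the alternatives chosen after seeing the data, leaving out regions in RefSeq genes gave 2110 remote regions, leaving out antigen receptor loci 2500, and keeping regions with at least 90% unique sequence 2307, with all differences in the same direction. The comparison is made within each replicate and is thus paired already, and with 1 group there is no replicate block to add. With 2 replicates the smallest p is 0.5, so no test here can pass 0.05, and the peak number of replicate 1 limits what it can show at weak sites.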

Other observations

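Remote regions were sparsest per Mb on the sex chromosomes. The X chromosome held 70, or 1.26 per Mb of eligible DNA, at a median mean percentile of 22.3. The Y chromosome held 9, or 0.160 per Mb, at 1.22. The labels give the mice as male, whose cells carry a single X, and the part of copy number was not tested. How much of the eligible DNA of these chromosomes is unique sequence was not computed. Chromosomes 13 and 9 were the densest, at 7.07 and 6.51 per Mb.

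Another annotation places some of these regions in genes. The middle of 524 remote regions (19.9%) lay in a RefSeq gene of the same build, as did that of 16.6% of near intergenic regions. Of the remote ones 356 lay in long noncoding RNA genes, 136 in genes of the type other, 19 in protein-coding genes and 14 in pseudogenes. The strongest remote regions beside Myc, Klf12, Bcl11a and Zfp36l2 are among those in long noncoding RNA genes.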
